A study of Mus musculus with 8 samples.

Results

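Wnt pathway genes that act at the cell surface and at the target promoter were followed in whole ovaries of mice on postnatal day 4, in 4 control (CON) and 4 conditional knockout (cKO) RNA sequencing libraries. The genes were taken by symbol: every numbered Wnt, Fzd, Sfrp, Dkk, Rspo, Axin and Tle gene except *Tle6*, together with *Lgr4*, *Lgr5*, *Lgr6*, *Lrp5*, *Lrp6*, *Tcf7*, *Tcf7l1*, *Tcf7l2*, *Lef1*, *Ctnnb1*, *Apcdd1*, *Frzb*, *Wif1*, *Notum*, *Znrf3*, *Rnf43* and *Porcn*. The rule itself used no measured value, but the genes were chosen with earlier results of these data known. It took 66 of the 24823 genes of the count table, 65 of them protein coding and 1, *Fzd10os*, a long noncoding transcript that lies beside *Fzd10*. After a filter on low counts 57 of the 66 were tested, among 15257 genes tested in all.

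Both genotypes were on a C57BL/6 background and carried the *Nr5a2* f/f alleles, in which exons 4 and 5 lie between LoxP sites, and the cKO ovaries carried in addition the Amhr2-cre transgene. The Cre is driven by the *Amhr2* gene, which the study localized to granulosa cells and the surface epithelium, so excision is directed to these cells and not to every cell of the ovary. A whole ovary library mixes oocytes, granulosa cells, stroma, epithelium, vessels and blood cells. In such bulk samples, fewer cells of a type and less RNA per cell cannot be told apart. Libraries are named CON 1 to CON 4 and cKO 1 to cKO 4 after the deposited columns, which give the genotype but do not tie a column to 1 animal, and p-values measure the spread between these libraries.

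In canonical Wnt signaling, a secreted Wnt protein made palmitoylated by PORCN binds a frizzled receptor together with LRP5 or LRP6, which halts the destruction of beta-catenin by the AXIN complex. Beta-catenin then joins TCF and LEF factors on DNA and displaces TLE corepressors. Secreted antagonists of the SFRP and DKK families bind Wnt proteins or LRP receptors, whereas R-spondins act through LGR receptors against the ubiquitin ligases ZNRF3 and RNF43 and so keep frizzled receptors at the surface. In the fetal mouse ovary, WNT4 and RSPO1 are known for their part in female gonad development.

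The libraries held 14649243 to 29066847 reads assigned to a gene. The *Nr5a2* count was higher in the cKO than in the CON libraries (15.5 and 27.4 CPM as means of CON and cKO, where CPM is the read count scaled to the library size with TMM factors; log2 fold change 0.82, SE 0.13, adjusted p = 0.0128). It sums all exons of the gene and so does not measure the loss of the 2 floxed exons. Granulosa markers were present in every library, with a summed level of 604 to 781 CPM in CON against 672 to 815 CPM in cKO, and the 13 oocyte markers summed to 886 to 1310 and 1338 to 1927 CPM. Some libraries stood apart by marker lists of other cell types. The 10 neutrophil markers summed to 115 CPM in CON 1 and 174 CPM in CON 3 against 13.7 to 22.1 CPM in the other 6 libraries. The 8 smooth muscle markers summed to 590 CPM in cKO 1 and 888 CPM in cKO 2, against 1773 and 2381 CPM in cKO 3 and cKO 4 and 2181 to 3138 CPM in CON. The 12 markers of reproductive tract and mesonephros summed to 370 to 563 CPM in CON against 186 to 346 CPM in cKO, without overlap. Among them *Hoxa13* and *Hoxd13* were at or near 0, and *Pax2*, *Pax8*, *Emx2*, *Lhx1*, *Pgr* and *Tbx18* singly overlapped between genotypes. Results are therefore also given without CON 1 and CON 3 and without cKO 1 and cKO 2.

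Among the Wnt pathway genes, those that fell in cKO ovaries included 3 antagonists, 2 frizzled receptors and 1 ligand, and those that rose included 2 corepressors. At an adjusted p under 0.05, 8 genes fell in cKO, namely *Apcdd1*, *Frzb*, *Dkk2*, *Fzd10os*, *Rspo3*, *Fzd1*, *Wnt5a* and *Fzd2*, and 3 rose, namely *Tle2*, *Rspo2* and *Tle4*. These are 14% and 5.26% of the 57 tested, where 3.28% of all tested genes fell and 3.64% rose by the same rule. With a change of at least 1.5-fold in addition, 4 fell (*Apcdd1*, *Frzb*, *Dkk2* and *Fzd10os*) against 0.518% of all genes, and 1 rose (*Tle2*) against 0.891% of all genes. *Rspo2* and *Rspo3* changed by 1.47-fold each, just under that limit. At an unadjusted p under 0.05, 18 were lower and 6 higher, where 13.3% and 15.5% of all genes were. In 13 genes all 4 cKO values lay below all 4 CON values and in 4 they lay above, against 9.10% and 8.95% of all genes. The median log2 fold change over the 57 was -0.029, with 25 above 0 and 32 below, and that over all genes was -0.00047.

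**Figure D1:**
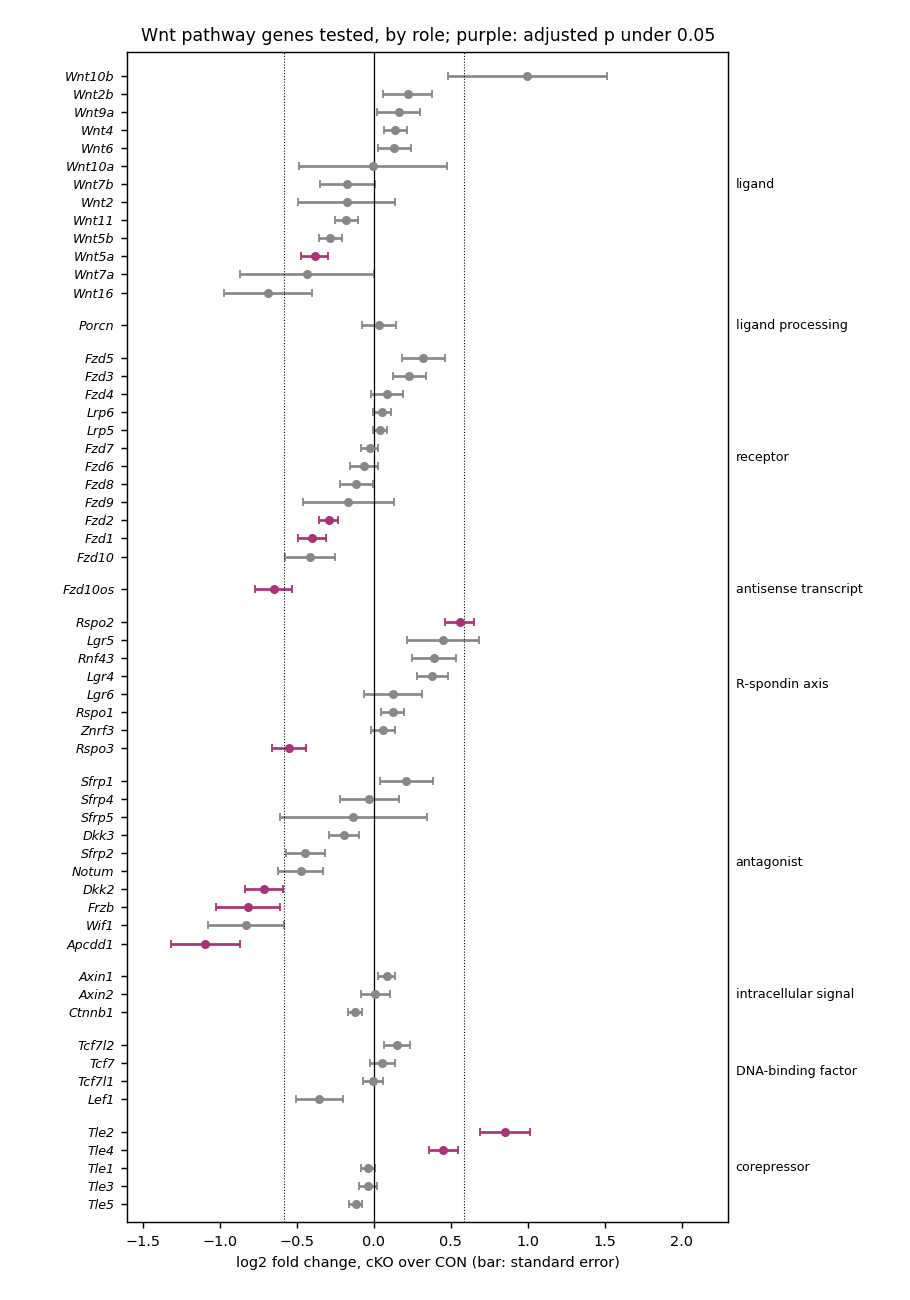
Log2 fold change of cKO over CON (x axis, with 0 for no change) for each of the 57 tested Wnt pathway genes, grouped by role, with bars for the standard error of the edgeR fit and dotted lines at a 1.5-fold change. Purple points had an adjusted p under 0.05: 3 lie to the right (*Tle2*, *Rspo2*, *Tle4*) and 8 to the left, 3 of them among the 10 antagonists tested.

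The genes that passed were counted by role. The roles hold few genes each, and differences between them were not tested. Of the 10 antagonists tested 3 fell and 0 rose, with a median log2 fold change of -0.46 and 9 of 10 below 0. Of the 13 ligands tested 1 fell, of the 12 receptors 2 fell, and of the 8 genes of the R-spondin axis 1 rose and 1 fell. Of the 5 corepressors 2 rose. None of the 4 DNA-binding factors, of the 3 intracellular components or *Porcn* passed, and at an unadjusted p under 0.05 1 DNA-binding factor and 1 intracellular component were lower by edgeR. The single-library values of the 11 genes that passed did not overlap between the genotypes. Selection by a low p in the same libraries favors this, so it adds no support.

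**Figure D2:**
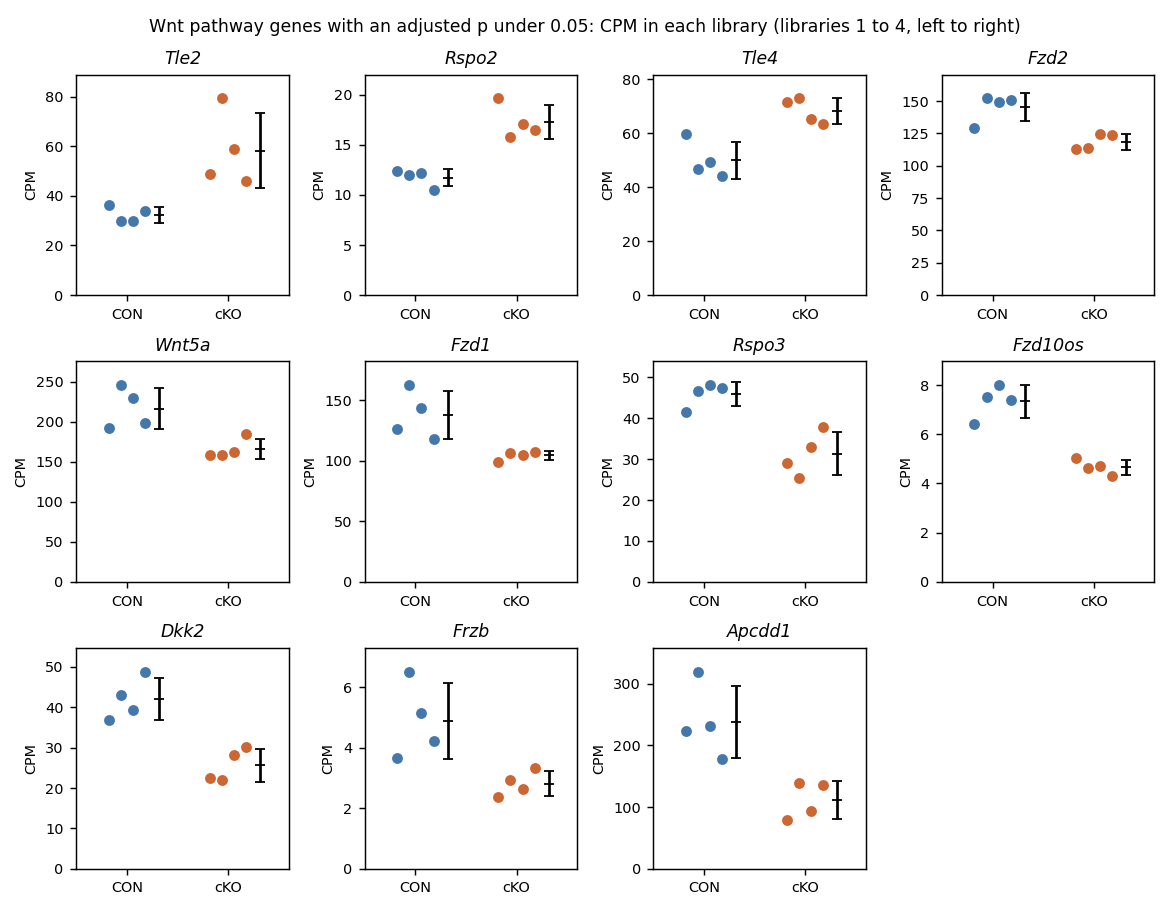
CPM in each library (points; 4 CON in blue and 4 cKO in orange, libraries 1 to 4 from left to right) for the 11 Wnt pathway genes with an adjusted p under 0.05, with the mean and SD of each genotype (n = 4) in black and each axis starting at 0. In every panel the 4 cKO points lie wholly above or wholly below the 4 CON points, which selection by a low p favors.

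To show the sequence at which transcription of these genes starts, windows of 300 bases were matched by gene ID for 42 of the 66 genes. Each ran from 250 bases before to 50 after a RefSeq start (build GRCm38.p6). The windows below, written from 5′ to 3′, are those of *Tle2*, which rose, of *Dkk2* and *Frzb*, which fell, of *Fzd10*, whose start faces that of *Fzd10os*, and of *Sfrp2*, the most abundant antagonist per length. Capitals mark a match to the core of the NR5A site, AAGGTCA or AAGGCCA, read on both strands; AAGGTCA holds within it the AGGTCA site bound by many other nuclear receptors.
Tle2 (chr10:81575037-81575336, plus strand): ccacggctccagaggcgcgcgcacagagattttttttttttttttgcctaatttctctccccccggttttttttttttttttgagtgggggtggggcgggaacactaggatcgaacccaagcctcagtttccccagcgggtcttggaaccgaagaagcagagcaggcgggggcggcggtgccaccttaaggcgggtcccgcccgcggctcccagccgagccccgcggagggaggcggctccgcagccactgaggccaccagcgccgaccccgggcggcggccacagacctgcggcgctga
Dkk2 (chr3:132085042-132085341, plus strand): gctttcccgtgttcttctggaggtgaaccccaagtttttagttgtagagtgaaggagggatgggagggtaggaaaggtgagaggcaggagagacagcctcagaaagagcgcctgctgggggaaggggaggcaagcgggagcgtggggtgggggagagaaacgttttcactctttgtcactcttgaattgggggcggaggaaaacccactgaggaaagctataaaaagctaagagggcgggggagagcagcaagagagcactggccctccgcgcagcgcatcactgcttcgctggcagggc
Frzb (chr2:80447347-80447646, minus strand): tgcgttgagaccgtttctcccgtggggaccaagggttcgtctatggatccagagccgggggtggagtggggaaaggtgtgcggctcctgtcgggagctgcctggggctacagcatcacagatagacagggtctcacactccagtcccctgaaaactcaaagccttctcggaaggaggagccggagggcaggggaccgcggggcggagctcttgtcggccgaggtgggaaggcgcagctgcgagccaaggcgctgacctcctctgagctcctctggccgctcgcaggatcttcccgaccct
Fzd10 (chr5:128600856-128601155, plus strand): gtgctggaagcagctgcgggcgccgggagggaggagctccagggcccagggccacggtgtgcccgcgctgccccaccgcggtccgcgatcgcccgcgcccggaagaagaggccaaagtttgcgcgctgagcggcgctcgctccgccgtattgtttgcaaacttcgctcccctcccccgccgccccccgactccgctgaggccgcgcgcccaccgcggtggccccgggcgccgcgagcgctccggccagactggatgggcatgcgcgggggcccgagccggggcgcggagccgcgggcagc
Sfrp2 (chr3:83766071-83766370, plus strand): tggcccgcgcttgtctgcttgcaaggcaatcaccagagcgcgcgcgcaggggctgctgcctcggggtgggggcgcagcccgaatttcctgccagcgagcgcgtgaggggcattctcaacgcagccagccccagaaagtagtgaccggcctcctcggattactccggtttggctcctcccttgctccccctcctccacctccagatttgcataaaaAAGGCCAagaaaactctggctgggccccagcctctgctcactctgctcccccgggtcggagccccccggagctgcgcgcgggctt

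In the *Sfrp2* window the match AAGGCCA began 35 bases before the start used for that window, next to an A-rich stretch. The *Sfrp2* and *Tle2* windows lie inside the annotated genes, whose outer starts are at 83765750 and 81574739, so sequence before those outer starts was not read. Either NR5A core was present in the windows of 3 of the 42 matched genes, *Sfrp2*, *Tcf7* and *Tle1*, or 7.14%, and in those of 12.0% of all 27025 genes with a window. None of these 3 genes passed the test. The cores CTTTGAT and CTTTGTT, which TCF and LEF factors bind, were present on either strand in the windows of 6 of the 42 genes (*Dkk1*, *Fzd7*, *Tcf7l2*, *Wnt3*, *Wnt5b* and *Wnt11*), or 14.3%, and in those of 10.6% of all genes. None of the 4 motifs was in the windows of *Tle2*, *Tle4*, *Dkk2*, *Frzb* or *Fzd1*. The other genes that passed (*Apcdd1*, *Fzd10os*, *Rspo2*, *Rspo3*, *Wnt5a* and *Fzd2*) had no matched window, so their starts were not read. A match is a description of these letters in this window only.

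Among ligands, *Wnt5a* was the only one that passed the test. *Wnt5a*, the main ligand of noncanonical Wnt signaling, is on chromosome 14 (GRCm38, 28504543 to 28527448, plus strand). In the order of library number, the CON values were 192, 246, 230 and 199 CPM and the cKO values 158, 159, 163 and 184 CPM, and values below follow the same order. The highest cKO library thus lay just under the lowest CON library. *Wnt5a* was lower in cKO by a log2 fold change of -0.38 (SE 0.09, adjusted p = 0.0345), a 1.31-fold difference (216 ± 25.5 CPM in CON and 166 ± 12.2 CPM in cKO, SD, n = 4). Its adjusted p rose to 0.101, 0.117, 0.0663, 0.0544, 0.0815 and 0.0722 with the omission of CON 2, CON 3, CON 4, cKO 1, cKO 2 and cKO 3 in turn, and ran from 0.00152 to 0.129 over 16 alternative settings. Exons of *Wnt5a* share 358 bases with the antisense gene Gm2670. The strand setting of the counting is not given in the sources used here, so the reads of the pair cannot be told apart. The same limit holds for all 14 of the 66 genes that share exon bases with a gene on the other strand. Among them are *Fzd5* (1233 bases), *Lef1* (1208), *Ctnnb1* (759, with the coding gene Ulk4) and *Sfrp2* (347).

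Its close paralog *Wnt5b* measured 42.2, 45.0, 45.1 and 41.0 CPM in CON and 33.0, 32.3, 38.6 and 38.7 CPM in cKO. The genotypes did not overlap, but *Wnt5b* just missed the threshold (log2 fold change -0.28, SE 0.08, adjusted p = 0.0514), and over the 16 settings its adjusted p ran from 0.0138 to 0.172. *Wnt11*, another ligand with noncanonical activity, measured 45.4, 41.7, 40.1 and 47.5 CPM in CON and 41.7, 39.8, 37.4 and 35.2 CPM in cKO, with overlap at cKO 1 (log2 fold change -0.18, SE 0.07, adjusted p = 0.145). *Wnt4*, the ligand known for its part in ovary determination, had 78.7, 86.3, 87.6 and 81.9 CPM in CON and 79.3, 102, 92.5 and 95.0 CPM in cKO. Only cKO 1 lay inside the CON range for *Wnt4*, and the difference was within the spread between libraries (log2 fold change 0.14, SE 0.08, adjusted p = 0.246).

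The ligands *Wnt16* and *Wnt7a*, chosen after their values were seen, split the cKO libraries rather than the genotypes. *Wnt16* had 32.9, 32.6, 31.0 and 23.3 CPM in CON, and 11.2 and 11.8 CPM in cKO 1 and cKO 2 against 25.0 and 26.7 CPM in cKO 3 and cKO 4. *Wnt7a*, a ligand of Müllerian duct epithelium, had 50.3, 58.5, 44.0 and 48.8 CPM in CON, and 69.4 and 43.6 CPM in cKO 1 and cKO 2 against 15.2 and 20.5 CPM in cKO 3 and cKO 4. The low libraries of *Wnt16* were those with the lowest summed smooth muscle markers, whereas the low libraries of *Wnt7a* were those with the lowest summed reproductive tract markers (186 and 221 CPM) and surface epithelium markers (1165 and 1325 CPM, against 2218 and 1649 CPM in cKO 1 and cKO 2). The part of these cell types in the split was not tested. Neither gene passed the test between genotypes, with adjusted p = 0.152 for *Wnt16* and 0.551 for *Wnt7a*.

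**Figure D3:**
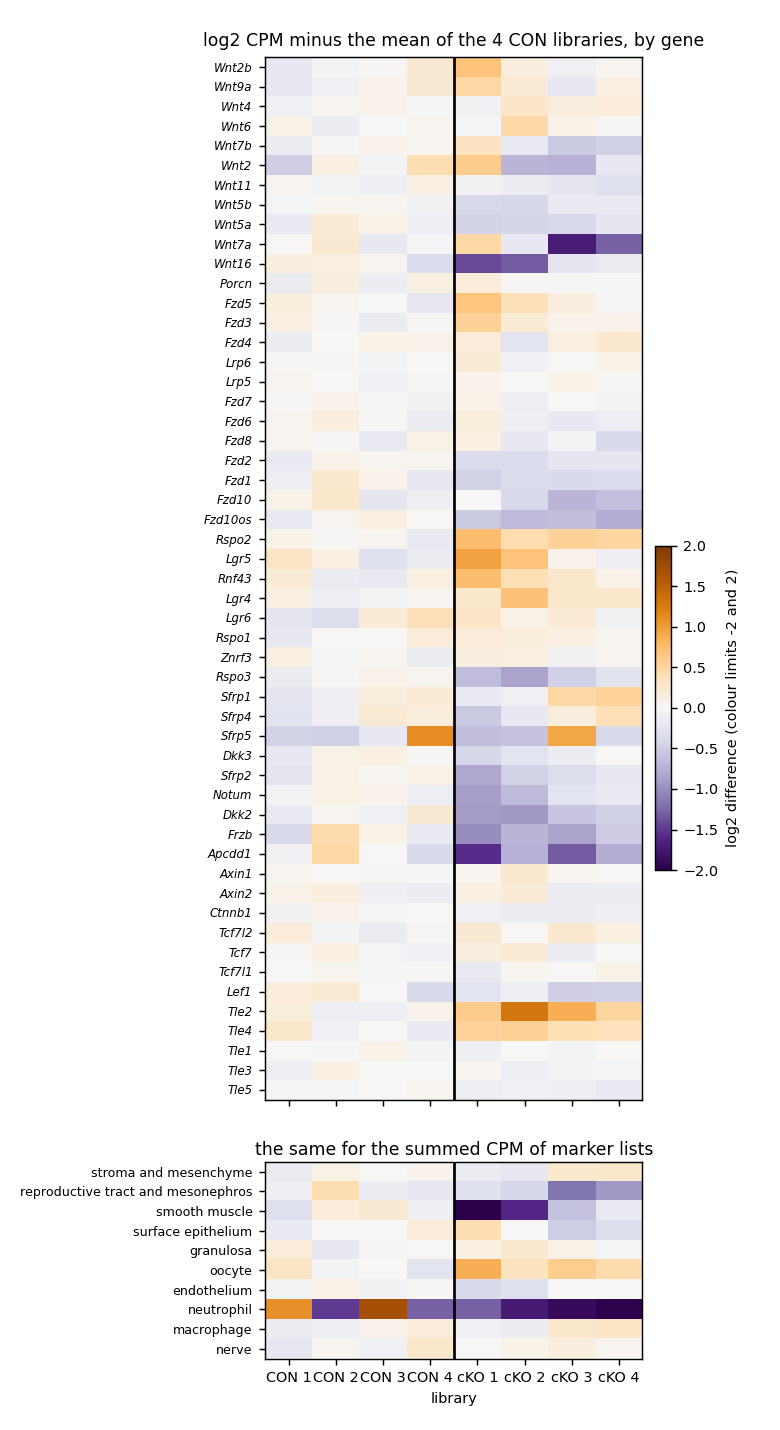
Log2 CPM of each library (columns) minus the mean of the 4 CON libraries, for the tested Wnt pathway genes with a mean above 2 CPM in CON (upper rows, in the order of the fold change plot) and for the summed CPM of 10 marker lists (lower rows), in orange where higher and in purple where lower, with colors cut at -2 and 2. *Dkk2* and *Apcdd1* are purple in all 4 cKO columns, *Wnt16* strongly only in cKO 1 and cKO 2, *Wnt7a* mainly in cKO 3 and cKO 4, the smooth muscle row is at its lowest in cKO 1 and cKO 2, and the neutrophil row is orange only in CON 1 and CON 3.

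Levels of different genes were compared per kb of exon, since a longer transcript yields more reads. In CON, *Wnt6* led the ligands at 41.2 to 48.4 CPM per kb, followed by *Wnt5a* (27.3 to 35.0) and *Wnt2b* (25.9 to 34.6), whose ranges overlapped, and then by *Wnt4* (18.8 to 20.9). *Wnt5b*, *Wnt7a*, *Wnt11*, *Wnt9a*, *Wnt16*, *Wnt7b*, *Wnt2*, *Wnt10a* and *Wnt10b* followed in this order of the mean. The genes *Wnt6* and *Wnt10a* lie 6.70 kb apart on chromosome 1, with *Wnt10a* at 0.253 CPM per kb in CON on average. *Wnt10b* had the largest positive log2 fold change of the set, 1.00, but at 1 to 42 reads a library its standard error was 0.51 and its adjusted p 0.228. The 6 ligands that were not tested, *Wnt1*, *Wnt3*, *Wnt3a*, *Wnt8a*, *Wnt8b* and *Wnt9b*, had at most 38 reads in any library. *Wnt1* had 0 reads in all 8 libraries, and a count of 0 allows up to 3 reads in each (counting error only). *Wnt9b*, a Wnt of the mesonephric duct, had 0.261 to 0.744 CPM in CON, 0 in cKO 2 and 0.161, 1.64 and 0.967 CPM in cKO 1, cKO 3 and cKO 4. *Porcn*, the acyltransferase needed for Wnt secretion, had 8.10, 9.92, 8.23 and 9.90 CPM in CON and 10.2, 9.16, 8.80 and 8.84 CPM in cKO, with overlapping ranges (log2 fold change 0.04, SE 0.11, adjusted p = 0.864).

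**Figure D4:**
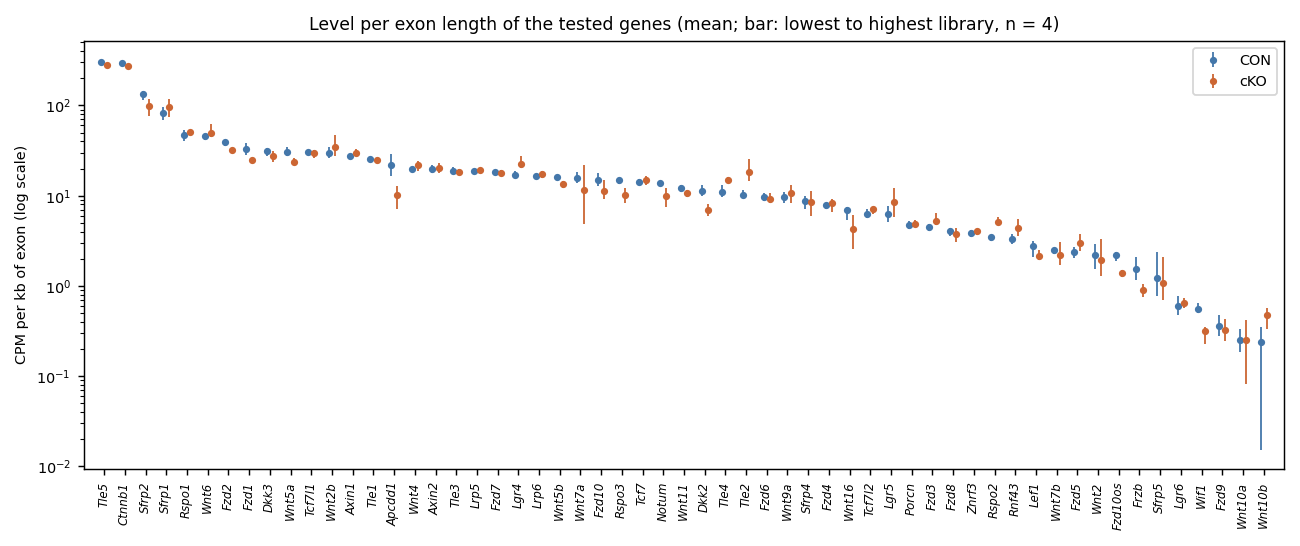
Level in CPM per kb of exon (y axis, log scale) of the 57 tested Wnt pathway genes, ordered by their CON mean, with points for the mean and bars from the lowest to the highest of 4 libraries (CON blue, cKO orange). *Tle5* and *Ctnnb1* stand highest near 300 CPM per kb, and the bars of *Apcdd1*, *Dkk2*, *Rspo3*, *Tle2*, *Tle4* and *Rspo2* do not overlap between genotypes.

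Of the receptors, *Fzd1* and *Fzd2* fell in cKO, and these were also the frizzled genes with the highest levels per length in CON (32.9 and 39.7 CPM per kb, with overlapping ranges). *Fzd2*, a receptor used by WNT5A among others, is on chromosome 11 (102604431 to 102608058, plus strand). It had 129, 152, 149 and 151 CPM in CON and 113, 113, 124 and 124 CPM in cKO, so that CON 1 lay closest to the cKO libraries. *Fzd2* was lower by a log2 fold change of -0.29 (SE 0.06, adjusted p = 0.0326), or 1.23-fold. *Fzd1*, on chromosome 5 (4753839 to 4758216, minus strand), had 127, 163, 144 and 118 CPM in CON and 99.4, 107, 105 and 107 CPM in cKO. The cKO values of *Fzd1* were close together and below all CON values (log2 fold change -0.40, SE 0.09, adjusted p = 0.0366), a 1.32-fold difference. The adjusted p of *Fzd2* was 0.108, 0.110, 0.0928, 0.0750 and 0.0565 on omission of CON 2, of CON 3, of CON 4, of cKO 2 and of cKO 3, and 0.00145 to 0.110 over all 16 settings. That of *Fzd1* was 0.0893, 0.119, 0.0588, 0.0764 and 0.0722 on omission of CON 2, of CON 3, of cKO 1, of cKO 2 and of cKO 3, and 0.00211 to 0.126 over all 16 settings.

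The third receptor by p-value was *Fzd10*, which had 51.2, 57.5, 41.1 and 44.9 CPM in CON and 48.2, 36.8, 29.6 and 31.5 CPM in cKO. Only cKO 1 lay inside the CON range, and *Fzd10* did not pass with all 8 libraries (log2 fold change -0.41, SE 0.16, adjusted p = 0.130), but did without cKO 1 (-0.59, adjusted p = 0.0324; range over the 16 settings 0.0268 to 0.297). The noncoding *Fzd10os* starts 418 bases from *Fzd10* on chromosome 5 and is transcribed away from it (128579130 to 128600687, minus strand). It was the only noncoding gene of the set and had 6.43, 7.53, 8.0 and 7.38 CPM in CON and 5.02, 4.61, 4.70 and 4.28 CPM in cKO, all 4 of the latter below CON. *Fzd10os* had a log2 fold change of -0.65 (SE 0.12, adjusted p = 0.0213), or 1.57-fold. Its adjusted p was 0.0842, 0.0898, 0.0630, 0.0513 and 0.0549 on omission of CON 2, of CON 3, of CON 4, of cKO 2 and of cKO 3, and 0.000590 to 0.0898 over the 16 settings. The exons of this neighbouring pair do not overlap in the annotation.

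The other frizzled genes and the coreceptors did not pass. *Fzd7*, *Lrp5* and *Lrp6* differed least, with log2 fold changes of -0.03, 0.04 and 0.05 and standard errors of 0.06, 0.04 and 0.06. *Fzd3*, *Fzd4*, *Fzd5*, *Fzd6*, *Fzd8* and *Fzd9* had log2 fold changes between -0.16 (*Fzd9*) and 0.32 (*Fzd5*), with adjusted p-values of 0.165 to 0.748.

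Within the R-spondin axis, the R-spondins went in opposite directions. *Rspo2* rose and *Rspo3* fell, while *Rspo1*, the R-spondin with the highest level per length (40.6 to 53.1 CPM per kb in CON), had a log2 fold change of 0.12 (SE 0.08, adjusted p = 0.307). *Rspo2*, on chromosome 15 (43020788 to 43171594, minus strand), had 12.4, 12.0, 12.2 and 10.5 CPM in CON and 19.7, 15.8, 17.1 and 16.5 CPM in cKO. The lowest cKO library lay well above the highest CON library, and the log2 fold change was 0.56 (SE 0.10, adjusted p = 0.0162). *Rspo3*, on chromosome 10 (29453106 to 29535867, minus strand), had 41.5, 46.6, 48.1 and 47.3 CPM in CON and 29.2, 25.5, 32.9 and 37.8 CPM in cKO. Here cKO 4 lay closest to CON, and the log2 fold change was -0.55 (SE 0.11, adjusted p = 0.0265). The adjusted p of *Rspo2* was 0.0651, 0.0679 and 0.0542 without CON 2, CON 3 or CON 4 (5.96e-05 to 0.0679 over the 16 settings). That of *Rspo3* was 0.0893, 0.0993, 0.0776 and 0.0560 on omission of CON 2, of CON 3, of CON 4 and of cKO 3 (0.000214 to 0.0993 over the 16 settings). Exons of *Rspo3* share 404 bases with the antisense gene Gm48159.

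Of the R-spondin receptors, *Lgr4* had 94.5, 79.8, 83.3 and 89.3 CPM in CON and 105, 139, 104 and 103 CPM in cKO. All 4 cKO values of *Lgr4* were above CON, and cKO 2 was far above the other 3. With a log2 fold change of 0.38 (SE 0.10) and an adjusted p of 0.0528 it just missed the threshold, and over the 16 settings its adjusted p ran from 0.00856 to 0.150. *Lgr5*, a receptor and a common beta-catenin target, chosen after its values were seen, split the cKO libraries, with 56.7 and 47.0 CPM in cKO 1 and cKO 2 and 30.7 and 27.4 CPM in cKO 3 and cKO 4 against 24.1 to 36.3 CPM in CON (log2 fold change 0.45, SE 0.23, adjusted p = 0.234). *Rnf43*, a ubiquitin ligase that removes frizzled receptors, had a range of 13.4 to 17.3 CPM in CON against 16.1 to 25.3 CPM in cKO (0.39, SE 0.14, adjusted p = 0.112), and its partner *Znrf3* 27.4 to 33.2 and 28.9 to 33.6 CPM (0.06, SE 0.08, adjusted p = 0.635). Of the remaining 2, *Lgr6* overlapped between genotypes and *Rspo4* was not tested, with at most 4 reads in a library.

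The antagonists held the largest decreases. *Apcdd1*, a membrane protein that binds Wnt and LRP5 and is itself a common beta-catenin target, is on chromosome 18. It had 223, 319, 231 and 178 CPM in CON and 78.3, 140, 93.4 and 136 CPM in cKO. The lowest CON library was above the highest cKO library, although CON 2 was well above the other 3. *Apcdd1* had a log2 fold change of -1.10 (SE 0.22, adjusted p = 0.0323), a 2.14-fold difference (238 ± 58.9 CPM in CON and 112 ± 30.7 CPM in cKO, SD, n = 4), which was the largest among the tested genes of the set. Without CON 2 its log2 fold change was -0.92. The adjusted p of *Apcdd1* was 0.0896, 0.0975, 0.0516, 0.0600, 0.0514 and 0.0695 on omission of CON 2, of CON 3, of CON 4, of cKO 1, of cKO 2 and of cKO 3, was 0.0562 with no filter on low counts, and ran from 0.00150 to 0.137 over the 16 settings.

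*Dkk2*, a secreted ligand of LRP6 that blocks or in some settings aids Wnt signaling, is on chromosome 3 (132085266 to 132180304, plus strand). It had 36.9, 43.1, 39.2 and 48.8 CPM in CON and 22.4, 22.0, 28.2 and 30.1 CPM in cKO. The groups were well apart, and cKO 1 and cKO 2 were the lowest. *Dkk2* had a log2 fold change of -0.71 (SE 0.12, adjusted p = 0.0167), or 1.64-fold. Its adjusted p was 0.0664, 0.0650 and 0.0516 without CON 2, CON 3 or CON 4 and stayed under 0.05 in the other 13 of 16 settings (5.95e-06 to 0.0664), the most of the 11 genes that passed.

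*Frzb*, a secreted frizzled-related protein, is on chromosome 2 (80411970 to 80447396, minus strand). It was a low transcript, at 47 to 185 reads a library, with 3.66, 6.51, 5.14 and 4.24 CPM in CON and 2.37, 2.93, 2.63 and 3.32 CPM in cKO. The highest cKO and the lowest CON library were close, and *Frzb* had a log2 fold change of -0.81 (SE 0.21, adjusted p = 0.0468), or 1.76-fold. It passed only narrowly: its adjusted p was 0.138, 0.133, 0.0940, 0.0752, 0.0892 and 0.0908 on omission of CON 2, of CON 3, of CON 4, of cKO 1, of cKO 2 and of cKO 3, was 0.0518 with no filter on low counts, and ran from 0.00921 to 0.138 over the 16 settings.

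Beside these decreases, the summed smooth muscle markers were below all CON libraries in cKO 1, cKO 2 and cKO 3 but not in cKO 4, which lay above CON 1, and the summed reproductive tract markers were below CON in all 4 cKO libraries. All 8 smooth muscle markers had a log2 fold change below 0 (median -0.91). By edgeR 0 of 8 passed at an adjusted p under 0.05, where 3.28% of all tested genes fell. At an unadjusted p under 0.05, 3 were lower, where 13.3% of all tested genes were. Of the 10 reproductive tract markers tested 1 passed (10%, where 3.28% of all tested genes fell), *Hand2*, at 60.0 CPM in CON and 18.6 CPM in cKO as means. *Hand2*, *Hoxa10*, *Hoxa11* and *Hoxd11* lay below CON in all 4 cKO libraries, as did 9.10% of all tested genes, with log2 fold changes of -1.71 to -2.4. *Pax2*, *Pax8*, *Emx2*, *Lhx1*, *Pgr* and *Tbx18* overlapped, with log2 fold changes of -0.36 to 0.02 and adjusted p-values of 0.377 or more by edgeR. Without cKO 1 and cKO 2, which were lowest in smooth muscle markers, the log2 fold changes were -1.07 for *Apcdd1*, -0.54 for *Dkk2* and -0.74 for *Frzb*, with adjusted p-values of 0.137, 0.0262 and 0.123. The part of these cell types in the 3 decreases was not tested.

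The antagonists *Wif1*, *Notum* and *Sfrp2* were lower at an unadjusted p under 0.05 but did not pass after adjustment. *Wif1*, which binds Wnt proteins directly, was scarce, at 11 to 33 reads a library, with 1.15, 1.16, 1.29 and 1.49 CPM in CON and 0.522, 0.810, 0.777 and 0.760 CPM in cKO (log2 fold change -0.83, SE 0.25, adjusted p = 0.0658). Its 4 cKO values were below all CON values. *Notum*, an enzyme that removes the lipid from Wnt proteins, had 29.7, 33.0, 32.2 and 28.6 CPM in CON and 16.8, 19.4, 25.7 and 27.3 CPM in cKO (-0.48, SE 0.14, adjusted p = 0.0703). The lowest 2 values of *Notum* were again cKO 1 and cKO 2, its adjusted p without cKO 4 was 0.0415, and its exons share 708 bases with the antisense gene Notumos. *Sfrp2* was the antagonist with the highest level per length, at 114 to 146 CPM per kb in CON, and had 229, 291, 279 and 286 CPM in CON and 153, 196, 213 and 237 CPM in cKO. For *Sfrp2*, cKO 4 lay above CON 1 (log2 fold change -0.44, SE 0.13, adjusted p = 0.0645).

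The other antagonists did not follow these. *Sfrp1*, the second antagonist per length, had a range of 306 to 415 CPM in CON against 323 to 520 CPM in cKO, with a log2 fold change of 0.21 (SE 0.17, adjusted p = 0.452), and it was the only tested antagonist above 0. *Sfrp4* and *Dkk3* had log2 fold changes of -0.03 (SE 0.19) and -0.20 (SE 0.10), and *Sfrp5* had -0.13 with a standard error of 0.48. *Dkk1* and *Dkk4*, with at most 2 and 4 reads in a library, were not tested.

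Inside the cell, the components of the canonical pathway differed little. *Ctnnb1*, which encodes beta-catenin, had 1021, 1118, 1054 and 1078 CPM in CON and 1004, 969, 962 and 991 CPM in cKO. All 4 cKO values were below CON, but the difference of -0.12 on the log2 scale was small (SE 0.05, adjusted p = 0.131; 0.0336 to 0.326 over the 16 settings). *Axin1*, the scaffold of the destruction complex, had 108, 106, 104 and 103 CPM in CON and 109, 124, 108 and 105 CPM in cKO (log2 fold change 0.08, SE 0.06, adjusted p = 0.344). *Axin2*, its paralog and the gene most used as a readout of beta-catenin activity, had 89.8, 93.2, 78.7 and 77.0 CPM in CON and 91.9, 97.1, 75.9 and 76.8 CPM in cKO. In both genotypes libraries 1 and 2 were the higher pair, and the log2 fold change of *Axin2* was 0.01 (SE 0.10, adjusted p = 0.954), with a sign that changed between settings.

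Of the DNA-binding factors, *Lef1* had 10.8, 11, 9.46 and 7.27 CPM in CON and 7.95, 8.72, 6.73 and 6.84 CPM in cKO (log2 fold change -0.35, SE 0.15, adjusted p = 0.155), with CON 4 inside the cKO range. *Tcf7l2* had 31.6, 27.0, 25.2 and 28.4 CPM in CON and 32.7, 28.1, 33.1 and 30.8 CPM in cKO (0.15, SE 0.08, adjusted p = 0.253). *Tcf7* had 37.8, 40.4, 36.2 and 35.2 CPM in CON and 41.4, 43.0, 34.1 and 37.2 CPM in cKO (0.06, SE 0.08, adjusted p = 0.685), and its sign changed in 2 of the 16 settings. *Tcf7l1*, a factor known mainly as a repressor of Wnt targets, had the highest level per length of the 4 (29.6 to 31.3 CPM per kb in CON) and a log2 fold change of -0.01 (SE 0.06).

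Of the corepressors, which bind TCF and LEF factors and many other repressors and are not particular to the Wnt pathway, *Tle2* and *Tle4* rose. *Tle2* is on chromosome 10 (81574739 to 81592581, plus strand) and had 36.1, 29.7, 29.7 and 33.7 CPM in CON and 48.7, 79.4, 58.9 and 46.0 CPM in cKO. All cKO libraries were above CON, with cKO 2 the highest, and the log2 fold change was 0.85 (SE 0.16, adjusted p = 0.0271), or 1.80-fold (32.3 ± 3.18 CPM in CON and 58.2 ± 15.1 CPM in cKO, SD, n = 4). Without cKO 2 it was 0.66. The adjusted p of *Tle2* was 0.0952, 0.0988, 0.0716 and 0.0583 on omission of CON 2, of CON 3, of CON 4 and of cKO 3, and 2.19e-05 to 0.0988 over the 16 settings. Exons of *Tle2* share 98 bases with the antisense gene Gm15917.

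*Tle4*, on chromosome 19 (14448072 to 14598183, minus strand), had 59.7, 46.6, 49.1 and 44.2 CPM in CON and 71.5, 73.0, 65.1 and 63.3 CPM in cKO. CON 1 was the highest control, still below every cKO library, and the log2 fold change was 0.45 (SE 0.09, adjusted p = 0.0288), or 1.37-fold. The adjusted p of *Tle4* was 0.0991, 0.104, 0.0813, 0.0710 and 0.0560 on omission of CON 2, of CON 3, of CON 4, of cKO 2 and of cKO 3, and 0.000604 to 0.104 over the 16 settings. The summed level of the 13 oocyte markers was higher in every cKO than in every CON library. All 13 had a log2 fold change above 0 (median 0.56). By edgeR 11 were higher at an unadjusted p under 0.05, where 15.5% of all tested genes were. At an adjusted p under 0.05, 3 rose (23.1%, against 3.64% of all tested genes) and 0 fell. Singly, 4 of the 13 had all cKO values above all CON values, against 8.95% of all tested genes. The part of oocyte content in the increases of *Tle2*, *Tle4* and *Rspo2* was not tested.

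The other corepressors did not rise. *Tle5*, a short family member that can oppose the others, lies 8.37 kb upstream of *Tle2* on the same strand and had the highest level per length of all 66 genes (298 to 318 CPM per kb in CON), in a range that overlapped that of *Ctnnb1* (282 to 309). It had 427, 420, 437 and 448 CPM in CON and 399, 406, 404 and 388 CPM in cKO, all of the latter below CON (log2 fold change -0.12, SE 0.04, adjusted p = 0.112; 0.0251 to 0.263 over the 16 settings). *Tle1* and *Tle3* had log2 fold changes of -0.04 each, with standard errors of 0.05 and 0.06. In CON, *Tle2* and *Tle4* were the lowest corepressors per length (9.45 to 11.5 and 9.68 to 13.1 CPM per kb, overlapping), and in cKO *Tle2* had 14.6 to 25.3 CPM per kb.

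To place these genes in the pathway, other Wnt pathway genes and common beta-catenin targets were read from 2 further lists. Of 46 other pathway genes (receptors, dishevelled proteins, kinases, cofactors and planar polarity genes) 41 were tested, with a median log2 fold change of -0.011. At an adjusted p under 0.05, 1 rose and 1 fell, or 2.44% each, where 3.64% of all tested genes rose and 3.28% fell. *Dvl3*, a dishevelled protein that relays the receptor signal, rose from 95.8, 94.0, 93.7 and 93.9 CPM in CON to 110, 122, 108 and 110 CPM in cKO, without overlap (log2 fold change 0.25, SE 0.05, adjusted p = 0.0223). *Ndp*, which encodes norrin, a ligand of FZD4 unrelated to Wnt proteins, fell from 6.48, 8.58, 6.89 and 5.21 CPM to 3.01, 3.24, 3.84 and 4.28 CPM, also without overlap (-0.93, SE 0.18, adjusted p = 0.0260). *Tpbg*, an inhibitor of canonical signaling, and *Csnk1e*, a kinase of the pathway, were next by p-value, with log2 fold changes of -0.30 and 0.23 and adjusted p-values of 0.0605 and 0.0614. Without CON 2 or CON 3, 0 genes of this list passed, and without CON 4, cKO 2 or cKO 3, 1 did.

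Of 17 genes commonly induced by beta-catenin 16 were tested, with a median log2 fold change of -0.13. At an adjusted p under 0.05, 3 fell (18.8%) and 0 rose, where 3.28% of all tested genes fell and 3.64% rose. This list shares *Apcdd1*, *Axin2*, *Lef1*, *Lgr5*, *Notum*, *Rnf43*, *Tcf7* and *Znrf3* with the genes above. The 3 that fell were *Apcdd1*, the transcription factor *Myc* (41.7, 46.2, 45.7 and 36.9 CPM in CON and 25.2, 23.6, 28.8 and 34.8 CPM in cKO; log2 fold change -0.61, SE 0.12, adjusted p = 0.0277) and the cyclin *Ccnd1* (155, 162, 144 and 166 CPM in CON and 123, 107, 117 and 135 CPM in cKO; -0.38, SE 0.07, adjusted p = 0.0245). *Nkd2*, a feedback inhibitor, overlapped only at cKO 4 and CON 4 (53.3 and 53.1 CPM; log2 fold change -0.78, SE 0.23, adjusted p = 0.0731), while *Nkd1*, *Sp5* and *Axin2* did not pass (adjusted p = 0.312, 0.291 and 0.954). *Myc* and *Ccnd1* respond to many other pathways as well. Without cKO 1 and cKO 2 the list held 1 gene that passed, and on omission of any 1 of CON 2, CON 3, CON 4, cKO 2 and cKO 3 it held 0.

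How far the calls depended on single libraries was read from fits that left out 1 library at a time. Without CON 2 or CON 3, 0 of the tested Wnt pathway genes passed, as did 0 of all genes by edgeR, with 3314 and 3259 genes at an unadjusted p under 0.05. Without CON 4, cKO 1, cKO 2 and cKO 3, 1, 8, 4 and 2 Wnt pathway genes passed, and without CON 1 and cKO 4, 13 and 14 did, including all 11. Counts over all genes also varied between these fits. Those that rose and fell numbered 35 and 98 without CON 4, and 385 and 479 without cKO 1. They numbered 93 and 173 without cKO 2, and 81 and 138 without cKO 3. Without CON 1 they were 1026 and 736, and without cKO 4 645 and 575. The unadjusted p of each of the 11 genes was under 0.05 in all 8 of these fits, and their log2 fold changes kept their sign. With both CON 1 and CON 3 left out, 2 genes passed, *Dkk2* and *Tle4*, each at an adjusted p of 0.0476. With both cKO 1 and cKO 2 left out, 8 passed, of which 5 were among the 11: *Dkk2*, *Fzd10os*, *Rspo3*, *Tle2* and *Rspo2*.

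**Figure D5:**
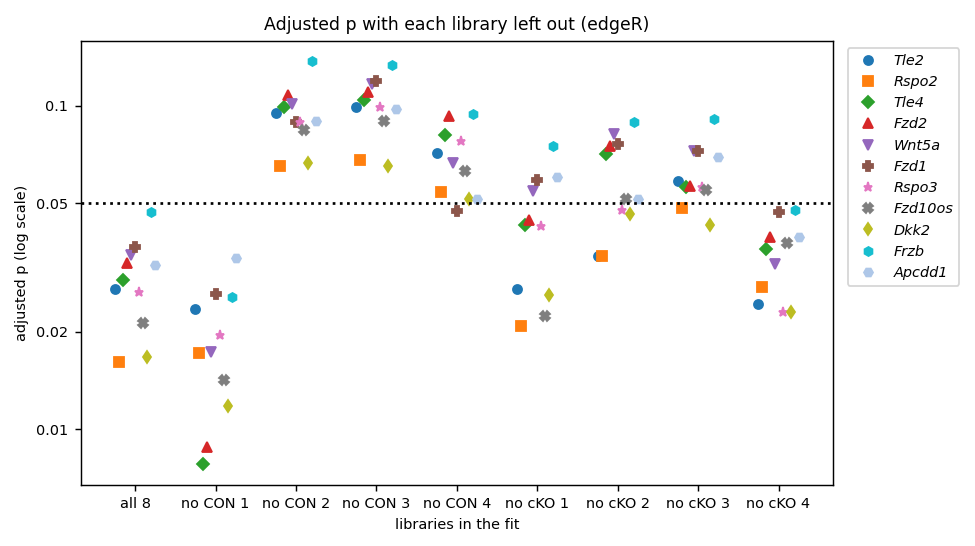
Adjusted p (y axis, log scale) of the 11 Wnt pathway genes that passed with all 8 libraries, in the fit with all libraries and in the 8 fits that leave out 1 library each (x axis), with the threshold of 0.05 dotted. All points lie above the line without CON 2 and without CON 3, and all lie below it without CON 1 and without cKO 4.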

How the data were processed

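RNA of whole ovaries on postnatal day 4 was sequenced by the authors from a stranded mRNA library kit (paired reads of 100 bases, quality under 20 removed), aligned with STAR to GRCm38 (mm10) and counted per gene with featureCounts. The tool versions, the annotation and the strand setting are not given in the sources used here. The deposited values used were raw read counts per gene. A second deposited table, with the authors' DESeq2 comparison and CPM, was not used.

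Counts were tested with edgeR 4.0.16 (quasi-likelihood, robust, TMM factors 0.978 to 1.03, filterByExpr) in R 4.3.3, cKO against CON, with Benjamini-Hochberg adjustment over all 15257 genes. Tests are two-sided, and the standard error was taken as the absolute log2 change divided by the square root of the F statistic. Of the gene IDs 99.7% matched a symbol. The method was tested on simulated counts, drawn with the same dispersion (0.0137) for every gene and without differences in cell content between libraries. Alternatives were RLE or library size scaling, no filter, at least 10 counts in every library, DESeq2 1.42.0, limma-voom 3.58.1 with quality weights, and fits without libraries. Values in every library are given for genes with an adjusted p under 0.05, for up to 3 per role with the smallest p, for those with an unadjusted p under 0.05 without overlap, and for *Wnt4* and *Tle2*. Members and lists were chosen with earlier results of these data known. Exon lengths come from GENCODE M21 basic, and promoter windows from RefSeq. None of the matched windows lies on chromosome 18.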

Additional observations from a re-analysis of the deposited data

Results flagged for a closer look

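In 114 groups of 4 libraries (57 genes in 2 genotypes), 5 held a library whose gap to the nearest other library took an unusually large share of the group's range. Chance gives such a gap in about 1 in 20 groups. *Fzd2* had 129.2 CPM in CON 1 against 149 to 152 CPM in the other controls. *Lgr4* had 139.4 CPM in cKO 2 against 103 to 105 CPM in the other cKO libraries. *Lrp6* had 149.9 CPM in CON 3 against 157 CPM in the others, a small difference in a tight group. *Sfrp5* had 4.464 CPM in CON 4 against 1.48 to 1.81 CPM, and 3.927 CPM in cKO 3 against 1.33 to 1.59 CPM.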

How the results depend on the processing

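Of 416 values (26 genes, 16 settings), 401 kept their direction. Only *Axin2*, *Porcn* and *Tcf7* changed sign. With voom these had log2 fold changes of -0.059, -0.022 and -0.024, without cKO 1 and cKO 2 of -0.16, -0.042 and -0.077, and *Axin2* and *Porcn* without CON 1 and CON 3 of -0.00060 and -0.099. Leaving out 1 library each gave -0.059 to 0.065 for *Axin2* and -0.027 to 0.085 for *Porcn*.

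Against 5 Wnt pathway genes called at 1.5-fold and 215 of all genes, 3 were called with no filter, 1 and 69 without CON 1 and CON 3, and 11 and 1056 with no fold limit. DESeq2 called 398 and voom 488 of all genes. At an adjusted p under 0.05, 13 Wnt pathway genes fell in DESeq2 and in voom, and 1 fell and 1 rose without CON 1 and CON 3. Leaving out 1 library each gave 0 to 6 genes called, 0 to 407 of all genes, 0 to 4 that rose and 0 to 11 that fell. Of other pathway genes 6 passed in DESeq2 and in voom, 0 without CON 1 and CON 3, and 0 to 4 leaving out 1 library each. Of the beta-catenin list 5 passed in DESeq2, 1 without cKO 1 and cKO 2, 0 without CON 1 and CON 3, and 0 to 4 leaving out 1 library each. Without cKO 1 and cKO 2, 27 genes did not overlap, against 17. With fewer libraries chance alone separates the genotypes more often, and the share over all genes was not counted, so these counts cannot be compared. The causes were not tested. The sample titles share no replicate number, while the count columns of both genotypes are numbered 1 to 4, with nothing to say that a number marks a shared litter or day. Deviations of same-numbered libraries correlated at 0.0532 to 0.25 across genes, over 0.1 in 2 of 4. Of the 4 CON libraries 2 correlated best with their own number, so the numbers were not taken as pairs. Across numbers, CON 1 correlated at 0.25 and 0.117 with cKO 1 and cKO 2, and at -0.157 and -0.297 with cKO 3 and cKO 4. CON 3 and CON 4 correlated at 0.078 to 0.189 with cKO 3 and cKO 4, and at -0.165 to -0.0391 with cKO 1 and cKO 2. CON 2 ran from -0.123 to 0.0532. A factor shared by libraries 1 and 2 or by libraries 3 and 4 was not tested. A replicate block on these numbers, added after the data were seen, passed 15 Wnt pathway genes (all 11 among them), 2004 against 1056 of all genes, and 6 other pathway genes. Genes under about 2 CPM had too few reads for small differences to be detectable.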
